A study of Bos indicus with 12 samples.

Results

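A pair of neighbourhoods of the cattle genome was examined side by side, one for each of the adhesion receptor genes ADGRB1 and ADGRE5. Each neighbourhood held every covered cytosine within 250 kb of a single cytosine that the study had paired with the gene, at position 1674753 of chromosome 14 for ADGRB1 and at position 11297489 of chromosome 7 for ADGRE5 (ARS-UCD1.2, plus strand). Of 635469 cytosines covered in all 12 animals, 1259 were members, 804 in the ADGRB1 and 455 in the ADGRE5 neighbourhood. Both central sites had been selected on the Tender against Tough contrast in these same animals, so their group differences are given as a description and carry no test. ADGRB1 and ADGRE5 are predicted target genes of these sites and not the genes nearest to them. The study's annotation placed both sites in an exon, with LYNX1 as the closest gene on chromosome 14 and PTGER1 and GIPC1 as the closest on chromosome 7. The chromosome 7 site lay in a CpG island, and the chromosome 14 site lay outside islands and their shores.

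The animals were Nelore (Bos indicus) steers kept in feedlots on the same ration, and their Longissimus thoracis, the rib portion of the long back muscle, was sampled at slaughter. Tough animals (n = 6) had higher and Tender animals (n = 6) lower shear force, the force needed to cut an aged steak. In the paper they were the extremes of a larger population ranked by estimated breeding value for shear force. Within each group every animal had a different sire. No treatment was applied. The labels give no age, and the paper states an average age at slaughter for the larger population only. DNA methylation was read by reduced representation bisulfite sequencing (RRBS), which cuts DNA with MspI and converts unmethylated cytosines so that they are read as thymine.

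Adhesion receptors are G protein-coupled receptors with a long extracellular part that holds on to other cells or to the matrix and is cut from the membrane part by the receptor itself. ADGRB1 (BAI1) recognises phosphatidylserine on dying cells, helps phagocytes take them up, and promotes the fusion of myoblasts into muscle fibres. ADGRE5 (CD97) is carried by leukocytes and also by smooth muscle and epithelial cells and binds CD55, a protein that restrains complement. Methylation of CpG islands at promoters usually goes with silent genes, while gene bodies are commonly methylated in active genes. Gene expression was not analysed here.

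Summed over the cytosines of the table, the reads before scaling came to 14521826 to 23470740 per animal. A read that covers several cytosines counts at each of them in this sum. The median per cytosine and animal was 23 reads in the ADGRB1 and 26 in the ADGRE5 neighbourhood, against 25 over all cytosines. Values are percentages of methylated reads in the deposited, scaled reads. Intervals given below are exact binomial 95% intervals on the reads before scaling, and they cover counting error only, since PCR copies could not be told from separate molecules. The DNA came from whole muscle, in which a shift in the mix of cell types, such as fat cells, and a shift of methylation within a cell type cannot be told apart.

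The ADGRB1 neighbourhood was the more methylated of the pair. Its mean over cytosines was 37.8% (36.5% to 38.6% across the 12 animals), against 22.3% (21.1% to 23.3%) in the ADGRE5 neighbourhood and 29.7% over all cytosines of the table. The ranges of the neighbourhoods did not overlap. Within an animal the ADGRB1 neighbourhood was higher by 15.4 ± 0.29 percentage points (SD, n = 12, range 14.9 to 16.1), in 12 of 12 animals (exact two-sided sign permutation test, p = 0.000488, the smallest this test can give). This order depended on which cytosines were counted. Among cytosines with at least 20 reads in every animal, 108 (13.4%) and 79 (17.4%) of the neighbourhoods remained, their means were 27.1% and 35.2%, and the ADGRB1 neighbourhood was then lower by 8.07 points, in 12 of 12 animals (difference -8.07 ± 0.93, SD, n = 12).

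The neighbourhoods differed in their shares of unmethylated and of intermediate cytosines. In the ADGRB1 neighbourhood, 311 cytosines (38.7%) had a mean under 5%, 64 (7.96%) lay from 5% to under 20%, 258 (32.1%) from 20% to 80% and 171 (21.3%) above 80%. In the ADGRE5 neighbourhood these numbers were 256 (56.3%), 58 (12.7%), 76 (16.7%) and 65 (14.3%). The shares over all cytosines were 52.4%, 9.26%, 17.8% and 20.6%, so ADGRB1 held the larger share of intermediate cytosines. The median cytosine was at 27.9% around ADGRB1, at 3.14% around ADGRE5 and at 4.11% over the table. Coverage was uneven, with 88 cytosines on the left and 715 on the right of the ADGRB1 site, and 176 and 278 around the ADGRE5 site.

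**Figure D1:**
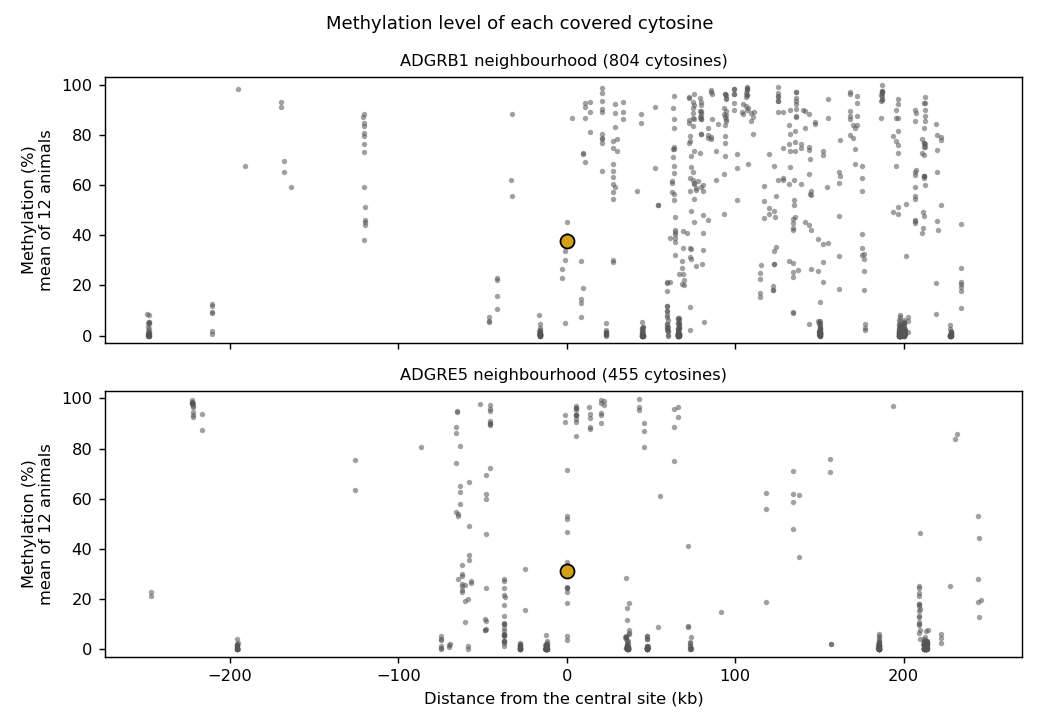
Mean methylation over the 12 animals (y axis, percent) of each covered cytosine against its distance from the central site (x axis, kb), in the ADGRB1 (804 cytosines) and ADGRE5 (455 cytosines) neighbourhoods; the large gold point is the central site. Dense clusters near 0% are the unmethylated stretches, and 212 of the 258 intermediate cytosines around ADGRB1 lie more than 50 kb on the right of the site.

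Unmethylated stretches, in which at least 10 successive covered cytosines were under 10% with gaps of at most 1 kb, numbered 7 around ADGRB1 (308 cytosines) and 8 around ADGRE5 (238 cytosines). The one with the most cytosines around ADGRB1 ran from 197 to 201 kb on the right of the site, with 127 cytosines at a mean of 1.56%. Its ADGRE5 counterpart ran from 211 to 214 kb on the right, with 67 cytosines at 1.43%. Such stretches were defined by low levels in these same animals, which left little room for a group difference. The Tender minus Tough difference of a stretch lay between -1.18 and 0.442 points around ADGRB1 and between -0.185 and 0.507 points around ADGRE5.

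Stretches of at least 5 successive cytosines from 20% to 80% were 19 around ADGRB1 (125 cytosines) and 4 around ADGRE5 (30 cytosines). Their group differences ranged from -5.15 to 10.2 points and from -7.28 to 7.88 points. Both central sites lay in such a stretch. The one at the ADGRB1 site held 5 cytosines over 1026 bp and had a mean of 36.2% ± 5.84 in Tough and 38.7% ± 5.72 in Tender animals (SD, n = 6 each). The one at the ADGRE5 site held 12 cytosines over 174 bp, at 37.1% ± 2.18 and 40.7% ± 3.82. In both stretches the group means differed by less than the central sites alone did, and those sites were chosen for their difference.

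Cytosines at intermediate levels varied widely between animals. Their median SD within a group was 14.4 points around ADGRB1 and 13.3 around ADGRE5, against 14 over the table. Spread was also given by the overdispersion factor of the logistic model. That factor was fitted to the scaled reads and not allowed below 1, so counting alone can give values above 1. Its median was 2.41 at the intermediate cytosines of the ADGRB1 neighbourhood, 2.36 at those of the ADGRE5 neighbourhood and 2.59 at those of the table. Over cytosines of every level these medians were 1.76, 1.48 and 1.59.

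At the ADGRB1 site, methylation was 20.8%, 19.5%, 22.7%, 27.3%, 18.2% and 37.2% in Tough animals 1 to 6. In Tender animals 7 to 12 it was 55.6%, 76.0%, 35.7%, 53.8%, 51.4% and 34.8%. The groups overlapped, since Tough 6 lay above Tender 9 and Tender 12, while the other 4 Tender animals lay above every Tough animal. The means were 24.3% ± 7.08 and 51.2% ± 15.2 (SD, n = 6 each), and pooled over the reads of a group the difference was 26.4 points. Depth at this site was 11 to 48 reads, and single animals were accordingly imprecise: Tender 10, with 6 of 11 reads methylated, had an interval of 23.4% to 83.3%.

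At the ADGRE5 site, Tough animals 1 to 6 had 10.8%, 0%, 27.0%, 13.0%, 13.6% and 36.4%. Tender animals 7 to 12 had 46.4%, 53.3%, 44.4%, 38.5%, 55% and 34.8%. In these scaled values the groups overlapped through Tough 6 alone, which lay above Tender 12. In the reads before scaling they did not overlap, with Tough 6 at 35.3% (6 of 17 reads) and the lowest Tender animal, Tender 10, at 36.4% (4 of 11 reads), a gap far inside the counting error of either animal. The means were 16.8% ± 12.9 and 45.4% ± 7.97 (SD, n = 6 each), with a pooled difference of 27.8 points. The 0% of Tough 2 stood for 0 of 11 reads, for which the exact interval reached 28.5% (27.3% by the limit of 3 counts in 11), and depth in the 12 animals was 11 to 37 reads. At both sites Tough 6 was the highest Tough animal, before and after scaling.

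**Figure D2:**
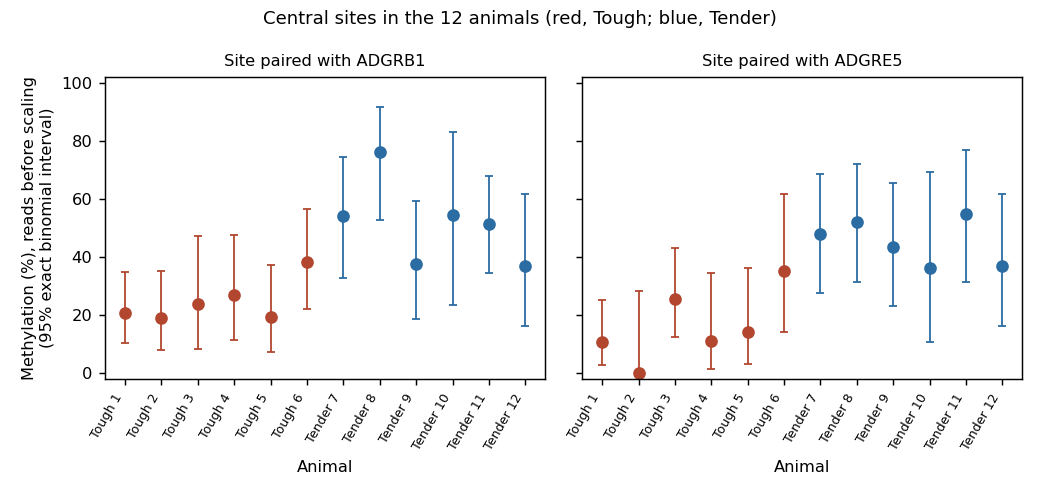
Methylation (y axis, percent of reads before scaling) at the 2 central sites in each of the 12 animals (x axis; red, Tough; blue, Tender), with exact binomial 95% intervals as bars. Tough 6 lies within the range of the Tender animals at the ADGRB1 site and, at 35.3%, just below the lowest of them (36.4%) at the ADGRE5 site, and the intervals are wide because depth was 11 to 48 reads at the first site and 11 to 37 at the second.

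The bisulfite conversion of the libraries was taken as higher or lower from the study's spike-in controls. The higher class held 3 Tough and 2 Tender libraries, and the lower class 3 Tough and 4 Tender libraries. At the ADGRB1 site the difference of group means was 38.7 points in the higher class (3 against 2 animals) and 21.4 points in the lower (3 against 4). At the ADGRE5 site it was 37.5 and 24.1 points. The direction was the same within both classes at both sites. Both sites were chosen on this contrast in these animals, so this is a description and not a test of conversion.

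Cytosines that shared reads with the ADGRB1 site differed less between the groups than the site, which was chosen for its difference. Those 14 bp and 44 bp to its right, on the same strand, had read numbers within 2 of the site in 12 of 12 animals. At 14 bp the groups were at 45.3% ± 12.1 and 45.5% ± 16.1, a difference of 0.185 points. At 44 bp they were at 32.7% ± 7.54 and 47.8% ± 8.71, a difference of 15.1 points. Averaged over both, Tough animals had 39.0% ± 9.01 and Tender animals 46.6% ± 9.12 (SD, n = 6 each), and the groups overlapped.

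The only other cytosines within 1000 bp of the ADGRB1 site lay to its left at -981 and -973 bp on the minus strand, and there Tender animals had the lower means. At -981 bp the groups were at 43.5% ± 16 and 23.7% ± 13.2 (difference -19.9 points), and at -973 bp at 35.0% ± 6.96 and 25.2% ± 12 (difference -9.83 points). The opposite strand of the site itself was not among the covered cytosines.

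Around the ADGRE5 site, 18 other cytosines lay within 1000 bp, in 3 sets of reads near the site itself. The cytosines 19, 34 and 40 bp to its right shared its reads, with read numbers within 2 of the site in 12 of 12 animals. They had differences of 11.8, 21.0 and 2.01 points. At 34 bp, the largest of these, Tough animals had 21.4% ± 15.4 and Tender animals 42.4% ± 13.8. Averaged over the 3, the groups were at 33.1% ± 10.6 and 44.7% ± 11.2 (SD, n = 6 each), and they overlapped.

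Plus-strand cytosines just to the left of the site had other read numbers, with a median of 38.5 at -51 bp against 20.5 at the site, and there the Tender mean was the lower. Cytosines to the left, at -51, -22 and -8 bp, had a mean of 39.3% ± 5.97 in Tough and 35.8% ± 4.05 in Tender animals, with differences of -1.19, -8.13 and -1.29 points. Minus-strand reads over the site, at 3 cytosines, had 34.6% ± 6.64 and 33.6% ± 6.23. Levels changed steeply over these few bases, from 71.2% at -8 bp to 31.1% at the site, in the mean of the 12 animals. Farther to the right, from 107 to 180 bp, differences took both signs, from -16 points at 180 bp to 8.29 points at 160 bp. The pair farthest to the left, at -745 and -734 bp on the minus strand, was highly methylated in both groups, with differences of 10.9 and 10.7 points.

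**Figure D3:**
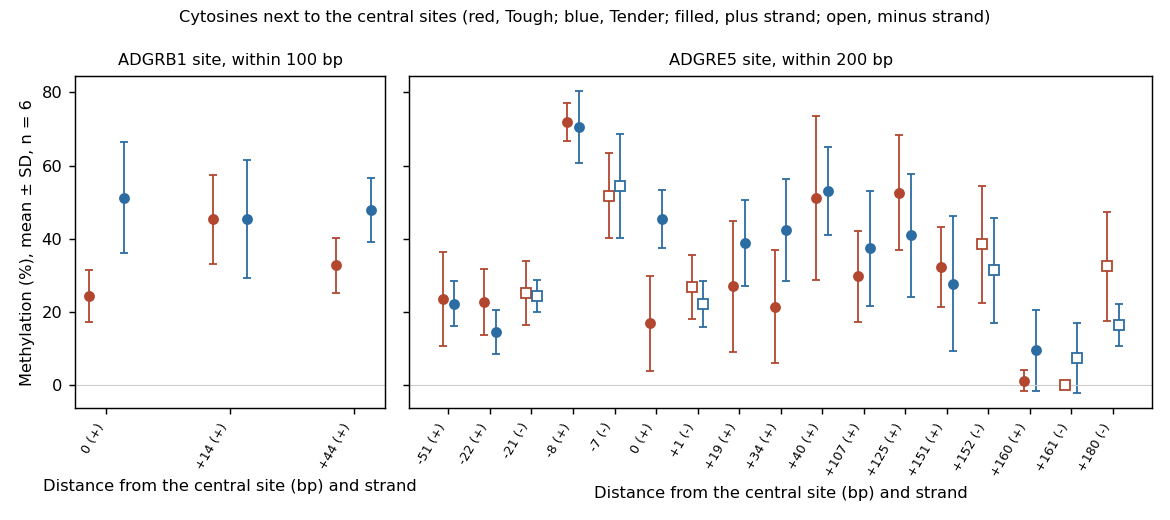
Mean methylation ± SD (y axis, percent, n = 6 per group; red, Tough; blue, Tender) of the central sites and of cytosines within 100 bp of the ADGRB1 site and 200 bp of the ADGRE5 site (x axis, distance in bp and strand; filled circles, plus strand; open squares, minus strand). The groups stand apart by 26.9 points at the ADGRB1 site and by 0.185 points at its neighbour 14 bp away, and by 28.6 points at the ADGRE5 site against -4.74 points at the same CpG on the minus strand.

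The ADGRE5 CpG was covered on both strands, so that each animal was read on either strand at the same place. On the minus strand the values were 27.9%, 17.5%, 43.2%, 22.9%, 25.9% and 23.3% in Tough animals 1 to 6. Tender animals 7 to 12 had 16.7%, 15.6%, 33.3%, 21.1%, 23.1% and 22.6%. These ranges overlapped almost wholly, with means of 26.8% ± 8.79 and 22.1% ± 6.32 (SD, n = 6 each), 4.74 points lower in Tender animals (difference -4.74). The plus strand was higher than the minus strand in 1 of 6 Tough animals, by a mean of -9.98 ± 11.7 points, and in 6 of 6 Tender animals, by 23.4 ± 11.2 points. Thus the Tender minus Tough difference was 33.3 points larger on the plus than on the minus strand. With both strands merged, the pooled difference was 9.06 points.

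Gaps of that size between strands were rare in the table. Of 9114 CpGs covered on both strands at 20% to 80%, 26 (0.285%) had a difference between strands in the group contrast at least as large as this, and the median was 7.07 points. The site was chosen by its plus-strand contrast alone, so this is a description. In the ADGRE5 neighbourhood, 2 of 6 such CpGs reached it, the site included, and in the ADGRB1 neighbourhood 0 of 21.

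**Figure D4:**
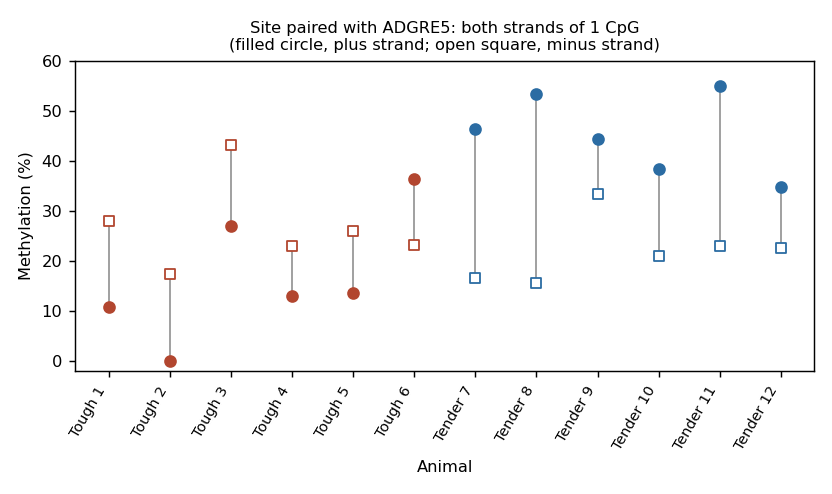
Methylation (y axis, percent) of the ADGRE5 CpG on the plus strand (filled circles) and minus strand (open squares) in each animal (x axis; red, Tough; blue, Tender), joined by a line. The minus strand lies above the plus strand in 5 of 6 Tough animals and below it in 6 of 6 Tender animals.

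At each cytosine of the table, a logistic regression on group with an overdispersion correction and a chi-square test was fitted, with Benjamini-Hochberg adjustment over all 635469. A cytosine was called at an adjusted p under 0.05 with a pooled difference above 25 points. Of all cytosines, 121 (0.0190%) were called, and in each neighbourhood 1 was, the central site. Their adjusted p-values, which chose them, were 0.0476 (ADGRB1) and 0.0248 (ADGRE5). The rule used this contrast, and nothing is read from that count. The sites ranked 117 (ADGRB1) and 73 (ADGRE5) by p among the 121. By the F-test of the same model, neither site nor any other cytosine of the table was called, and 4.93% of the table had an unadjusted p under 0.05 (5.85% around ADGRB1 and 7.03% around ADGRE5). With 1 animal left out at a time, the ADGRB1 site stayed called in 3 of 12 fits, those without Tough 6, Tender 9 or Tender 12, and the ADGRE5 site in 5 of 12, those without Tough 2, Tough 3, Tough 6, Tender 10 or Tender 12.

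The other counts of this contrast are given beside the share in the table, and nothing is read from them either. An unadjusted p under 0.05 was reached by 75 cytosines (9.33%) around ADGRB1 and 43 (9.45%) around ADGRE5, against 8.29% of the table. Of these, 42 and 28 were higher in Tender and 33 and 15 higher in Tough animals. The same split was not computed for the table. Whatever their p, 293206 cytosines of the table had the higher mean in Tender and 254746 in Tough animals. An adjusted p under 0.05, whatever the size of the difference, was reached by 2 and 1 cytosines, against 0.135% of the table. Groups that did not overlap were seen at 0 cytosines of either neighbourhood and at 0.0965% of the table in scaled reads. In reads before scaling, an alternative chosen after seeing the data, they were seen at 0 cytosines around ADGRB1, at 1 around ADGRE5, the site itself, and at 0.0932% of the table. In windows of 100 bp, 42 of 193249 (0.0217%) were called, and 0 of 251 around ADGRB1 and 0 of 134 around ADGRE5. The F-test also called 0 windows in either neighbourhood. By that test 13 (5.18%) and 9 (6.72%) had an unadjusted p under 0.05, against 5.62% of all windows. The window with the ADGRB1 site, of 3 cytosines, was at 34% ± 8.18 and 48.1% ± 10.7, and the window with the ADGRE5 site, of 7 cytosines, at 35.2% ± 2.55 and 36.1% ± 3.60 (SD, n = 6 each).

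Just outside the call were cytosines that failed on size or on p. In the ADGRB1 neighbourhood a minus-strand cytosine lay to the left of the site, at -16.1 kb, inside an unmethylated stretch. It had 0% in all 6 Tough animals and 8.97% ± 7.04 in Tender animals (0% to 14.8%). Its adjusted p was 0.00385 by the chi-square test, but its pooled difference was 10 points. Its overdispersion factor was 1, the lowest value allowed. By the F-test, the lowest adjusted p of any cytosine in this neighbourhood was 0.806. A minus-strand cytosine 155 kb to the right had 79.3% ± 8.20 and 94.3% ± 4.36, with an adjusted p of 0.101. Around ADGRE5, a plus-strand cytosine to the left, at -58.0 kb, had 79.3% ± 9.08 in Tough and 54.3% ± 24.8 in Tender animals. Its pooled difference was -28.7 points, with an adjusted p of 0.250. The minus strand of the same CpG went the other way, at 42.8% ± 22.7 in Tough and 55.3% ± 20.5 in Tender animals (12.5 points). The widest difference of group means in either neighbourhood was at none of the sites named above but at a cytosine 123 kb to the right of the ADGRB1 site, named after its values were seen, with 32.5% ± 19.7 and 62% ± 14.5 (29.5 points, adjusted p 0.227).

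Of the 10 cytosines with the smallest p, 5 in each direction, 9 around ADGRB1 and 7 around ADGRE5 had a mean under 20% or above 80%. So did most cytosines of either neighbourhood, as only 32.1% around ADGRB1 and 16.7% around ADGRE5 lay from 20% to 80%. Nothing is read from these counts. Of the 5 with the smallest p in each direction around ADGRB1, those higher in Tough animals included one 173 kb to the right at 89.8% ± 5.49 and 77.7% ± 7.52 (adjusted p 0.150). Around ADGRE5, one to the left, at -62.1 kb, had 30.9% ± 10.7 and 14.5% ± 7.13 (adjusted p 0.298). Neither of these was called.

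**Figure D5:**
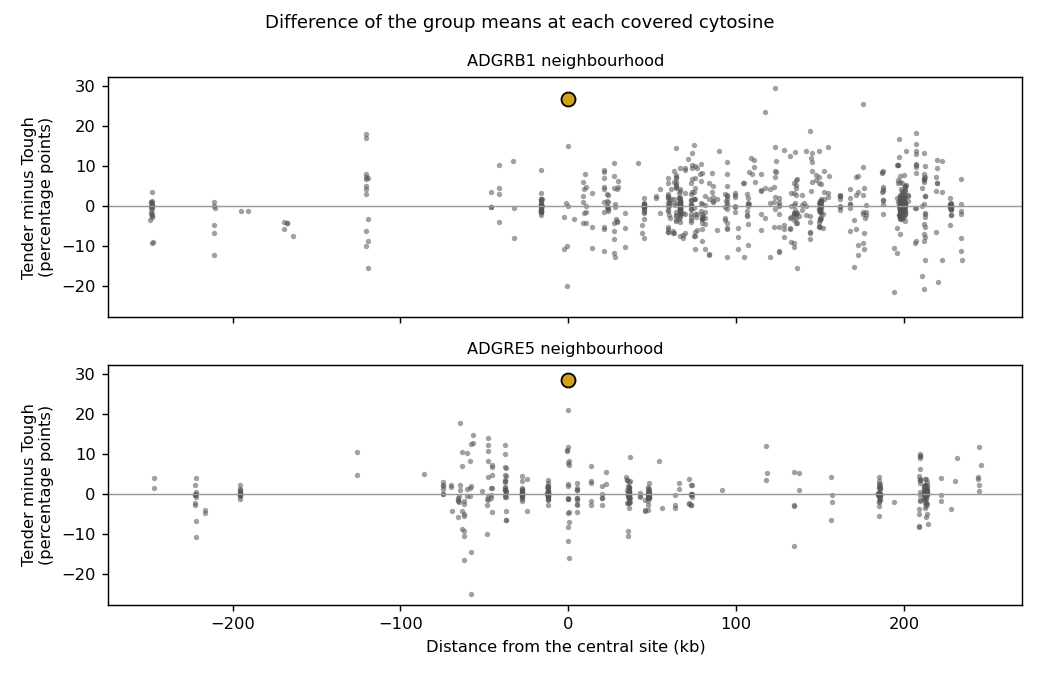
Tender minus Tough difference of group means (y axis, percentage points) of each covered cytosine against its distance from the central site (x axis, kb) in both neighbourhoods; the large gold points are the central sites, at 26.9 and 28.6 points. Most cytosines lie close to 0, and the 29.5-point cytosine 123 kb to the right of the ADGRB1 site is the highest.

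As a whole, neither neighbourhood moved far with tenderness. The mean of the ADGRB1 neighbourhood was 37.5% ± 0.77 in Tough and 38.1% ± 0.33 in Tender animals, a difference of 0.602 points, and that of the ADGRE5 neighbourhood 22.1% ± 0.81 and 22.6% ± 0.49, a difference of 0.514 points (SD, n = 6 each). These small differences depended on the weighting and the animals. With reads pooled over cytosines they were 0.933 and 1.40 points, and at 20 reads or more in every animal the ADGRE5 difference was 0.942 points. Without Tough 5 the ADGRE5 difference was 0.319 points. Over all cytosines of the table the difference was 0.402 points. Within the higher conversion class the neighbourhood differences were 0.959 and 0.637 points, and within the lower class 0.115 and 0.151 points. With the site and its surroundings of 100 bp left out they were 0.551 and 0.414 points.

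Over the called cytosines of the table, the neighbours mostly differed less on average than the called cytosine did. Called cytosines were chosen for a large difference and their neighbours were not, so this is a description. Single neighbours could differ more, as beside position 594274 of chromosome 1 (29.8 against 27.2 points). Of the 121, 105 had another covered cytosine within 50 bp on the same strand, and the neighbours' median difference in the direction of the call was 6.82 points (quartiles 3.22 and 15.7). The ADGRB1 and ADGRE5 sites had 7.64 and 5.09 points, both inside those quartiles.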

How the data were processed

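After adapter removal with Trim Galore 0.4.1, the authors mapped the RRBS libraries to ARS-UCD1.2 using Bismark 0.23.0. In methylKit 1.8.1 they required 10 reads or more per cytosine in each of the 12 animals and normalised coverage. The deposited numbers are scores, namely scaled and rounded methylated and unmethylated reads, and are not counts. The design had assumed counts, and its logistic model was kept because methylKit fits that model to scaled coverage. The factor of each animal (1 to 1.27) was inferred from the values, which returned whole reads for all 7625628.

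The software was Python 3.11.15, with scipy 1.17.1 for distributions, numpy 2.4.6 for the regression, pandas 2.3.3 for tables and matplotlib 3.10.9 for figures. The regression was tested on simulated data. Groups came from the labels, whose shear force is dated to another day of aging than in the paper. The named cytosines are the central sites, those within 1000 bp and, in each neighbourhood, the 5 with the smallest p in each direction. The sites, neighbourhoods and lists were chosen with earlier results of these data known. Gene names and order were checked only in a RefSeq name table of another assembly (NIAB-ARS_B.indTharparkar_mat_pri_1.0), where 7 protein-coding genes lie between LYNX1 and ADGRB1 and 2 between PTGER1 and ADGRE5. Promoters, gene bodies and the 33 adhesion receptor genes were not analysed here.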

Additional observations from a re-analysis of the deposited data

Results flagged for a closer look

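In groups of 6, the highest or lowest animal was set against the others by Dixon's ratio and its 95% limit, at all cytosines within 1000 bp of the sites and for the neighbourhood means. Of 52 groups, 7 passed it. Chance passes about 1 in 20 for independent normal values, but these are bounded percentages, partly of shared reads, so that share does not apply. Groups without any spread count among the 52 and could not pass. Where the other animals tie, as for Tender 9 at -734 bp and Tough 3 at 160 bp, any departure passes. At 44 bp from the ADGRB1 site, Tough 6 was at 47.7% and the other Tough animals at 27.3% to 31.9%. Near the ADGRE5 site, to its left at -734 bp, Tough 2 was at 52.9% against 88.9% to 100%, and Tender 9 at 92.3% against 100%. At -8 bp, Tough 3 was at 82.1% against 67.4% to 72.1%. At 40 bp to the right, Tender 7 was at 29.6% against 51.9% to 63.3%. At 160 bp, Tough 3 was at 7.14% against 0% in the others, and at 161 bp Tender 10 was at 25.8% against 0% to 7.69%. The cause was not tested.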

How the results depend on the processing

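Of the results computed under other settings with all 12 animals, 48 kept their value or call, 16 moved and 1 reversed. Some of the 48 could not change. The pooled difference at a site does not depend on the test or on the overdispersion correction. Merging strands cannot alter the ADGRB1 site, whose opposite strand was not covered. The reversal was the ADGRB1 minus ADGRE5 mean, 15.4 points, which fell to -8.07 among cytosines with at least 20 reads in every animal and was 13.8 to 17.8 otherwise. The cause was not tested. Called cytosines (121 in all, 1 and 1 in the ADGRB1 and ADGRE5 neighbourhoods) numbered 0, 0 and 0 by the F-test, 1431, 3 and 2 without the overdispersion correction, and 8, 0 and 0 at 20 reads or more, and merging strands left 0 around ADGRE5. Called windows (42 in all) numbered 0 by the F-test, 266 without the correction and 15 at 20 reads or more. The pooled difference at the ADGRE5 site was 9.06 points with strands merged. The difference of the ADGRE5 neighbourhood was 1.40 points with reads pooled over cytosines. Reads before scaling, added after seeing the data for the overlap of the groups, gave 1 cytosine without overlap around ADGRE5 in place of 0.

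With 1 animal left out at a time, calls ranged from 128 to 196 over the table and from 0 to 2 in each neighbourhood, called windows from 41 to 81 over the table, 0 to 1 around ADGRB1 (1 without Tough 6) and 0 to 0 around ADGRE5. Calls over the table rose past 1.5 times without Tough 1 (196) and Tender 10 (187), and called windows without Tough 1 (81), Tough 3 (66), Tender 9 (66) and Tender 10 (76). The site differences ranged from 21.5 to 29.9 points (ADGRB1) and 25.4 to 30.8 (ADGRE5), the neighbourhood differences from 0.415 to 0.784 and 0.319 to 0.748, and the mean of ADGRB1 minus ADGRE5 from 15.3 to 15.5. A minimum of 20 reads left no value for either site. Promoter against gene body comparisons were not run. Tough and Tender animals were not paired, since they are different animals and the labels give no pairs. Depth limited single animals: at 11 reads, the exact interval of 0 methylated reads reached 28.5%.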
